A study of Mus musculus with 6 samples.

Results

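The 10 genes described here encode nuclear subunits of the mitochondrial ATP synthase: Atp5a1, Atp5b, Atp5c1, Atp5d, Atp5o, Atp5f1, Atp5h, Atp5j, Atp5g1 and Atp5g3. They were taken by name from the 39177 genes of the count tables, and all 10 were found. Their levels were compared between 3 control mice and 3 Polrmt knockout mice, and the F1 genes were set against the Fo genes. RNA came from crude heart mitochondria, so each nuclear transcript was measured as it remained in that preparation. Polrmt encodes the mitochondrial RNA polymerase. The controls, titled L/L, carry Polrmt alleles with loxP sites around exon 3 and no cre, and their genotype label is Polrmt +/+. The knockouts, titled L/L, cre, carry the same alleles and express cre from what the labels call the muscle creatinine kinase promoter, and their genotype label is Polrmt -/-. That promoter acts in muscle, so other cells of the heart are expected to keep the gene. All 6 mice were C57BL/6N and 3 to 4 weeks old.

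ATP synthase, or complex V, uses the proton gradient across the inner mitochondrial membrane to make ATP from ADP and phosphate. Its F1 head in the matrix holds the catalytic sites, formed by the alpha and beta subunits around a central stalk. Its membrane part, Fo, holds a rotor ring of c subunits beside subunit a, and a peripheral stalk keeps the head from turning with the rotor. Subunits a and A6L are encoded by mtDNA as mt-Atp6 and mt-Atp8, and the remaining subunits are imported from the cytosol. In heart muscle the enzyme is among the most abundant proteins of the inner membrane.

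By role, Atp5a1 and Atp5b encode alpha and beta, and Atp5c1 and Atp5d encode the central stalk subunits gamma and delta. These 4 are the F1 genes. The peripheral stalk is represented by Atp5o (the oligomycin sensitivity conferring protein), Atp5f1 (subunit b), Atp5h (subunit d) and Atp5j (coupling factor 6). Atp5g1 and Atp5g3 encode precursors that differ in the import sequence and give the same mature subunit c. The stalk and c genes are the 6 Fo genes of the comparison. Newer symbols for the 10, in the order of the first sentence, are Atp5f1a, Atp5f1b, Atp5f1c, Atp5f1d, Atp5po, Atp5pb, Atp5pd, Atp5pf, Atp5mc1 and Atp5mc3.

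Near-identical copies limit what a count of some of these genes means, and the end of the subunit c coding sequence shows this most clearly. Gm10039, a processed pseudogene on chromosome 11, matched the 408 coding bases of Atp5g1 at 99.8%. Their only difference was G385A, with positions counted from the first coding base of Atp5g1 and the Atp5g1 base given first. Atp5g3 differed from Atp5g1 at 45 of the last 225 coding bases (80.0% identical). Coding bases 348 to 408 of Atp5g1 are shown 5′ to 3′ from GRCm38 with the aligned bases of the pseudogene and of Atp5g3, and capitals mark bases that differ from Atp5g1.
Atp5g1: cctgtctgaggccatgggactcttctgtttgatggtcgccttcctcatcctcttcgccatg
Gm10039: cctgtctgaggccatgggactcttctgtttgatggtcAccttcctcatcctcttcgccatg
Atp5g3: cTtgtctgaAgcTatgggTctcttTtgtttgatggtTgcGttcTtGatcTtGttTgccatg
In this stretch the pseudogene had 1 difference and Atp5g3 had 12. A read from these bases that misses the 1 difference could come from Atp5g1 or from Gm10039, whereas Atp5g1 and Atp5g3 differ at bases spread along the stretch.

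Counts assigned to genes were between 2867067 and 3234729 in control libraries and between 1062030 and 1227997 in knockout libraries. Transcripts of mtDNA held 81.9% ± 2.10 of them in controls and 22.8% ± 2.65 in knockouts (mean ± SD, n = 3 each). Without mtDNA and 5 loci that collect ribosomal RNA reads, 76949 to 109351 counts were left per control and 126339 to 164004 per knockout. Values are given as CPM, counts relative to the library size after TMM scaling, which sets the bulk of tested, mostly nuclear, transcripts to no change. A level of 3 counts was worth 1.14 to 2.51 CPM. Polrmt itself had 3, 2 and 1 counts in controls and 2, 5 and 1 in knockouts, and a gene count does not resolve exon 3, so these counts do not check the labels. All 8 cardiomyocyte marker genes were detected, at a summed 4357 to 5227 CPM in controls and 4114 to 4452 CPM in knockouts.

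Relative to other nuclear transcripts of the preparation, the ATP synthase genes as a group were at nearly the same level in knockouts and controls. Their summed level was 713 ± 51.2 CPM in control and 692 ± 42.1 CPM in knockout libraries (mean ± SD, n = 3 each), and the groups overlapped. As a share of the other nuclear counts, which needs no scaling, they held 1.08% ± 0.0607 in control and 1.12% ± 0.0673 in knockout libraries (mean ± SD, n = 3 each), again with overlap. These shares rest on 803, 1134 and 1261 counts in the controls and 1430, 1499 and 1926 counts in the knockouts. The mtDNA share of the same libraries, given above, was lower in the knockouts. In bulk RNA, fewer cells of a type and less RNA per cell cannot be told apart.

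Of the 10 genes, 1 rose (Atp5f1) and none fell by edgeR's quasi-likelihood test at an adjusted p under 0.05. Over all 3363 genes tested, 6.66% were called higher, 6.78% lower and 13.4% in either direction. At an unadjusted p under 0.05 there were 3 of the 10 (Atp5f1, Atp5d and Atp5g1, all above 0), against 25.1% of all tested genes. DESeq2 called 0 of the 10 and 191 of 2711 tested genes, and its smallest adjusted p among the 10 was 0.0633, for Atp5f1. The median log2 fold change of the 10 was 0.017, beside 0.0038 over all tested genes, and single values ran from -0.18 to 0.53, with 6 above 0 and 4 below. The knockout values lay wholly outside the control values for 4 genes (Atp5a1, Atp5d, Atp5f1 and Atp5g1), and for 29.3% of all tested genes. Among the 721 nuclear genes of at least the expression of the lowest of the 10, 45.5% had groups that did not overlap and 302 had an unadjusted p under 0.05. Against those genes, the counts of 4 and 3 among the 10 are not above the background.

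**Figure D1:**
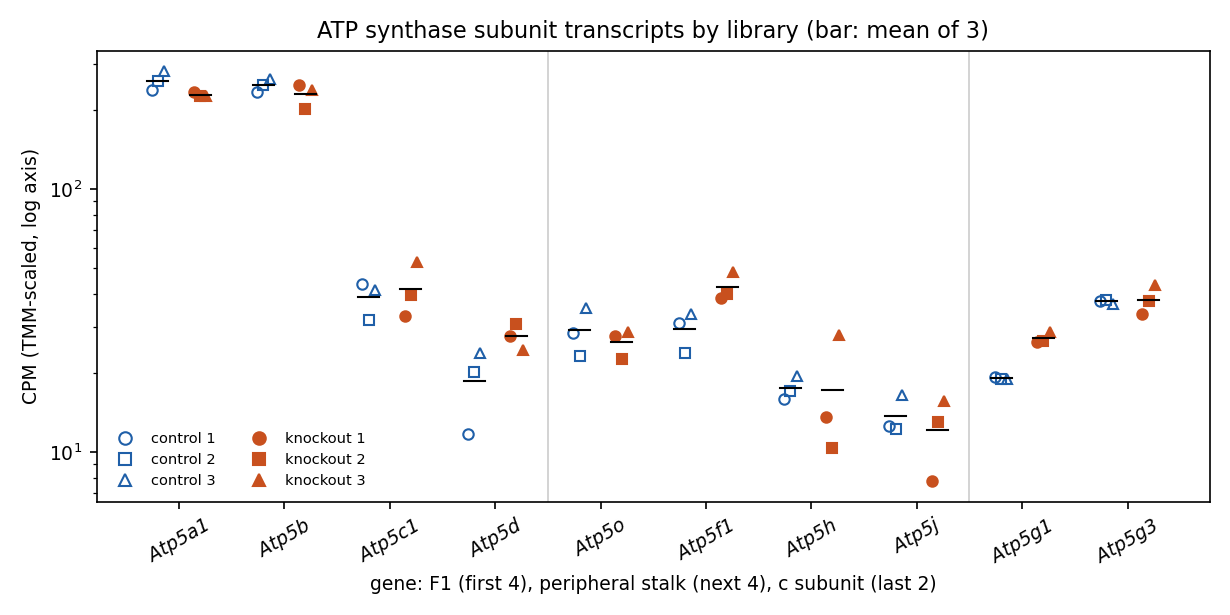
CPM (TMM-scaled, log axis) of each ATP synthase gene in every library, with open blue symbols for controls, filled orange symbols for knockouts and a bar at the mean of 3. Atp5g1 lies at 18.9 to 19.3 CPM in controls and 26.2 to 28.6 CPM in knockouts, while Atp5h in knockout 3 stands apart at 27.8 CPM.

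The catalytic genes had the highest levels of the group and differed little between the groups. Atp5a1 (ENSMUSG00000025428, chromosome 18) had 239, 258 and 282 CPM in controls and 235, 227 and 226 CPM in knockouts. All 3 knockouts lay below all 3 controls, by a small margin. The log2 fold change was -0.18 ± 0.13 (SE; 95% interval -0.44 to 0.085; adjusted p = 0.440 by edgeR). Atp5b (ENSMUSG00000025393, chromosome 10, 128083273 to 128090391 on GRCm38, as for all positions here) had 234, 250 and 263 CPM in controls and 249, 203 and 238 CPM in knockouts, and the groups overlapped. Its log2 fold change was -0.11 ± 0.13 (SE; 95% interval -0.38 to 0.15; adjusted p = 0.671 by edgeR). With 279 to 625 counts per library, these genes had the smallest standard errors of the 10. Haus1, which shares 129 exonic bases with Atp5a1 on the opposite strand, had at most 1 count per library.

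Alpha and beta stand in equal number in the F1 head, and their transcripts were also nearly level. The ratio of Atp5a1 to Atp5b counts was 1.02, 1.03 and 1.07 in controls and 0.944, 1.12 and 0.950 in knockouts. The knockout values spread on both sides of the control values.

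The central stalk genes were lower and less precisely measured. Atp5c1 (ENSMUSG00000025781, chromosome 2, 10056016 to 10080510), for subunit gamma, had 43.6, 31.8 and 41.5 CPM in controls and 32.9, 39.5 and 53.0 CPM in knockouts. The groups overlapped, and the log2 fold change of 0.12 ± 0.17 (SE; adjusted p = 0.727 by edgeR) turned to -0.077 without knockout 3 and to -0.012 without control 2. Atp5d (ENSMUSG00000003072, chromosome 10, 80138632 to 80145818), for subunit delta, had 11.7, 20.2 and 23.8 CPM in controls and 27.6, 30.8 and 24.4 CPM in knockouts. Every knockout lay above every control, although knockout 3 and control 3 were close. Its log2 fold change was 0.52 ± 0.21 (SE; 95% interval 0.12 to 0.93; adjusted p = 0.0763 by edgeR), which misses the threshold. It passed without control 3 (0.73, adjusted p = 0.0444) and in the fit of nuclear genes only (0.60, adjusted p = 0.0298), and was 0.32 without control 1, the library in which the gene had 14 counts. At 14 counts control 1 lay below the cutoff of the low-count filter, so Atp5d passed that filter only with the knockouts. With no low-count filter its adjusted p was 0.0764 by edgeR.

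Among the peripheral stalk genes, Atp5f1 was higher in the knockouts and the other 3 overlapped between the groups. Atp5f1 (ENSMUSG00000000563, chromosome 3, 105942698 to 105960099), for the long subunit b that reaches from the membrane to the head, had 37, 39 and 55 counts in controls and 80, 92 and 127 in knockouts. After scaling these were 31.0, 23.9 and 33.6 CPM in controls and 38.8, 39.9 and 48.4 CPM in knockouts. Every knockout exceeded every control. The rise was 1.45-fold (log2 fold change 0.53 ± 0.18 SE, 95% interval 0.18 to 0.88, adjusted p = 0.0269 by edgeR). The authors' deposited table gives Atp5f1 a log2 fold change of 0.64 with a false discovery rate of 0.00863.

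The Atp5f1 call depended on the libraries used. It was lost without control 2 (log2 fold change 0.39, adjusted p = 0.237), knockout 1 (0.59, 0.0518), knockout 2 (0.56, 0.0801) or knockout 3 (0.43, 0.201), and with DESeq2 (0.62, 0.0633). It held without control 1 (adjusted p = 0.0424) or control 3 (adjusted p = 0.0276). Atp5f1 shares 337 exonic bases on the opposite strand with Wdr77, which had 0, 3 and 4 counts in controls and 6, 15 and 15 in knockouts. Wdr77 had a log2 fold change of 1.67 (adjusted p = 0.0137 by edgeR), and it passed the low-count filter through the knockouts, where its counts were higher. Its call was lost without control 1 (adjusted p = 0.157), control 2 (0.0776), knockout 2 (0.145) or knockout 3 (0.121), and with no low-count filter (0.0602). The sources used here do not give the strand setting of the counting, so reads from the shared bases cannot be told apart. The pseudogene Gm12231, 98.8% identical to Atp5f1 over 692 bases, had 1, 2 and 5 counts in controls and 6, 8 and 5 in knockouts. With such copies added to their genes, Atp5f1 had a log2 fold change of 0.54 (adjusted p = 0.0215). The part of Wdr77 reads in the result was not tested.

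Of the other stalk genes, Atp5o (ENSMUSG00000022956, chromosome 16, 91925214 to 91931687) had 28.5, 23.3 and 35.4 CPM in controls and 27.6, 22.5 and 28.6 CPM in knockouts. Its log2 fold change was -0.15 ± 0.19 (SE; adjusted p = 0.708 by edgeR). Atp5j (ENSMUSG00000022890, chromosome 16, 84827866 to 84835625), the least abundant of the 10 by count, had 15, 20 and 27 counts in controls and 16, 30 and 41 in knockouts. These were 12.6, 12.2 and 16.5 CPM against 7.75, 13.0 and 15.6 CPM, with overlap (log2 fold change -0.16 ± 0.26 SE, adjusted p = 0.765 by edgeR). Atp5j shares 397 exonic bases with Gabpa on the opposite strand, a gene that did not pass the test (log2 fold change 0.41, adjusted p = 0.574).

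Atp5h (ENSMUSG00000034566, chromosome 11, 115415689 to 115419962) varied most among the knockouts. It had 15.9, 17.1 and 19.6 CPM in controls and 13.6, 10.4 and 27.8 CPM in knockouts. Knockout 3 lay above every control and the other knockouts below every control. The log2 fold change of 0.0018 ± 0.26 (SE; 95% interval -0.52 to 0.52; adjusted p = 0.997 by edgeR) became -0.55 (adjusted p = 0.247) without knockout 3. The pseudogene Gm10250, 99.0% identical over 483 bases, had 7, 7 and 9 counts in controls and 10, 15 and 8 in knockouts, 27.5% of the total of Atp5h. In knockout 3 the pseudogene was at its lowest among the knockouts where Atp5h was at its highest. With copies added, the log2 fold change of Atp5h was -0.027.

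Of the subunit c genes, Atp5g1 was higher in every knockout than in every control and Atp5g3 overlapped between the groups. Atp5g1 (ENSMUSG00000006057, chromosome 11, 96068852 to 96075670) had 23, 31 and 31 counts in controls and 54, 61 and 75 in knockouts. After scaling, the controls stood at 19.3, 19.0 and 18.9 CPM and the knockouts at 26.2, 26.4 and 28.6 CPM. The groups did not overlap. With 23 to 31 counts per control, counting error exceeds the control SD of 0.184 CPM, so that spread understates the uncertainty. The log2 fold change was 0.51 ± 0.20 (SE; 95% interval 0.11 to 0.91), and the adjusted p of 0.0820 by edgeR misses the threshold. In the fit of nuclear genes only it passed (0.59, adjusted p = 0.0281). The authors' deposited table gives Atp5g1 a log2 fold change of 0.59 and a false discovery rate of 0.0571.

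Atp5g3 (ENSMUSG00000018770, chromosome 2, 73908447 to 73911326) had 37.7, 38.0 and 36.7 CPM in controls and 33.4, 37.7 and 43.1 CPM in knockouts. The knockouts lay around the controls, with a log2 fold change of 0.032 ± 0.17 (SE; 95% interval -0.30 to 0.37; adjusted p = 0.935 by edgeR). A ratio of the c genes within a library needs no scaling. Atp5g1 made up 33.8% (95% Clopper-Pearson interval 22.8 to 46.3), 33.3% (23.9 to 43.9) and 34.1% (24.5 to 44.7) of their summed counts in controls. In knockouts its share was 43.9% (35.0 to 53.1), 41.2% (33.2 to 49.6) and 39.9% (32.8 to 47.3).

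Every knockout share exceeded every control share, and the means were 33.7% ± 0.373 and 41.7% ± 2.04 (mean ± SD, n = 3 each). The difference of 7.93 points is larger than both SDs, but the control SD is far below the counting error of a single library. The counting intervals of single libraries overlap between the groups. No test was made of this share. The log2 ratio of Atp5g1 to Atp5g3 counts was -0.96 ± 0.024 in control and -0.48 ± 0.12 in knockout libraries (mean ± SD, n = 3 each). The difference of 0.48 was between 0.41 and 0.53 when any 1 library was left out. Gm10039 had 9, 6 and 10 counts in controls and 16, 13 and 19 in knockouts, 26.6% of the total of Atp5g1. With near copies added, the difference between the groups was 0.45. Atp5g2, the third gene for subunit c, had 1 count in control 3 and 0 in the other libraries, so it was not detectable at this depth beyond that count.

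**Figure D2:**
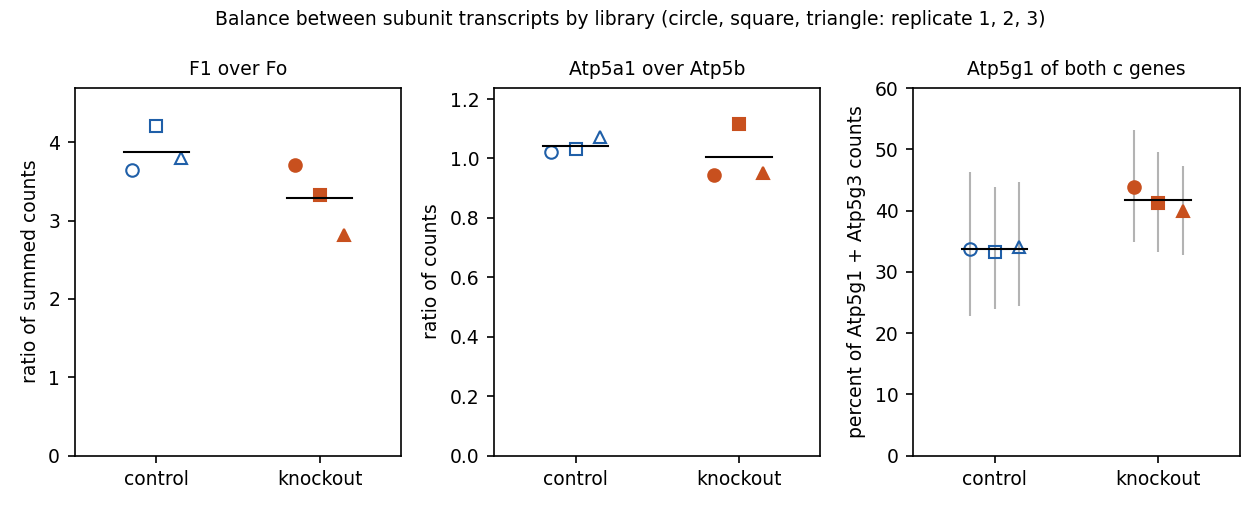
Ratios between ATP synthase transcripts within each library for controls (open blue) and knockouts (filled orange), with circles, squares and triangles for replicates 1, 2 and 3 and a bar at the mean. From left to right are summed F1 over summed Fo counts, Atp5a1 over Atp5b counts, and Atp5g1 as percent of both c genes with 95% Clopper-Pearson intervals; the last is the panel in which the groups do not overlap.

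Summed over roles, F1 counts exceeded Fo counts in every library. The ratio of F1 to Fo counts was 3.64, 4.20 and 3.79 in controls and 3.70, 3.33 and 2.82 in knockouts. Knockout 1 lay within the control range and the other knockouts below it. The log2 ratio was 1.95 ± 0.11 in control and 1.71 ± 0.20 in knockout libraries (mean ± SD, n = 3 each), a difference of -0.25 that became -0.14 without knockout 3. Atp5a1 and Atp5b dominate the F1 sum. When each gene counted equally, as the mean log2 CPM of F1 genes less that of Fo genes, the difference between groups was 0.0061. The median log2 fold change was 0.0046 over the 4 F1 genes, 0.017 over the 6 Fo genes, -0.073 over the 4 stalk genes and 0.27 over the c genes. Of the F1 genes 0 passed edgeR's test (1 at an unadjusted p under 0.05), and of the Fo genes 1 did.

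Levels of different genes can be set side by side only per length, here as CPM per kilobase of the longest annotated coding sequence, without UTRs. In controls Atp5b and Atp5a1 led at 157 ± 9.13 and 157 ± 12.9, followed by Atp5g3 at 88.5 ± 1.64 (mean ± SD, n = 3). The remaining 7 lay between 36.3 (Atp5h) and 46.7 (Atp5g1), with Atp5o at 45.5, Atp5c1 at 43.6, Atp5j at 42.5, Atp5f1 at 38.4 and Atp5d at 36.9. Neighbours in this order overlapped in controls except at the steps from Atp5a1 to Atp5g3 and from Atp5g3 to Atp5g1. In the knockouts Atp5g1 (66.3 ± 3.25) also stood clear of Atp5o (41.1 ± 5.08). Among the tested genes with an annotated coding length, which leaves out those of mtDNA, the 10 ranked between 14 and 122 per coding length in controls.

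**Figure D3:**
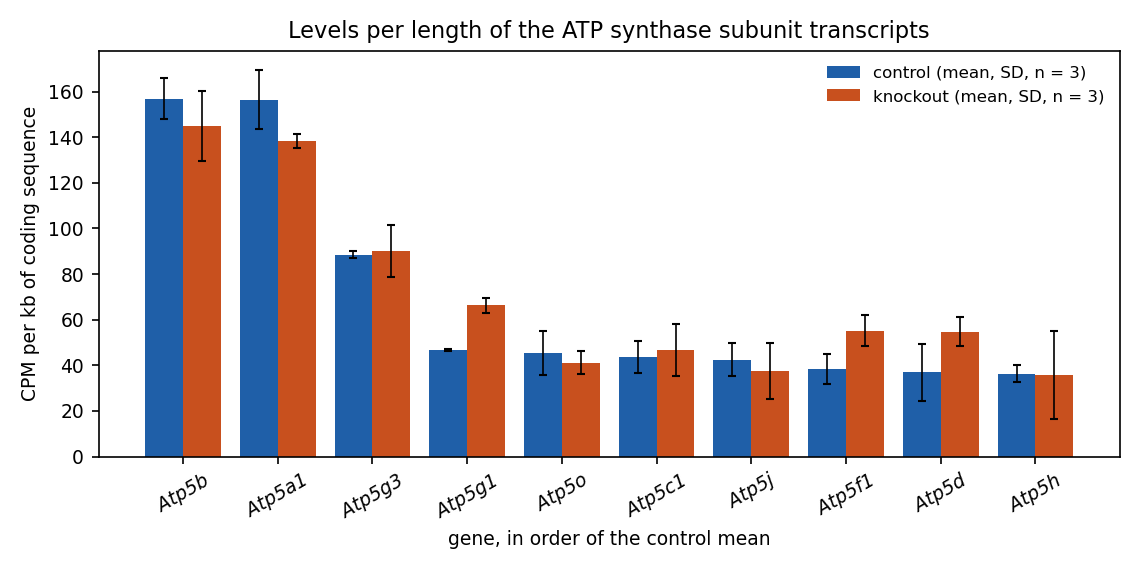
Mean level per kilobase of coding sequence for each ATP synthase gene in controls (blue) and knockouts (orange), with SD over 3 libraries as error bars and genes in order of the control mean. Atp5b and Atp5a1 stand at 157 in controls, Atp5g3 at 88.5, and the other 7 genes between 36.3 and 46.7.

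Across libraries, the genes tended to share a high value in knockout 3. Knockout 3 had the highest of the 3 knockout values in 7 of the 10 genes and the highest of all 6 libraries in 5. Over the 3346 nuclear genes tested, these shares were 33.1% and 13.8%. Control 3 was highest of all libraries in 4 of the 10, against 18.0% of tested nuclear genes. Knockout 3 also differed most from the other libraries of its group over genes outside mtDNA. The chi-square per degree of freedom was 6.26 against knockout 1 and 3.76 against knockout 2. The other replicate pairs lay between 1.3 and 1.88. These values include the 5 loci that collect ribosomal RNA reads, whose part in them was not tested. Without knockout 3, the log2 fold changes were -0.16 for Atp5a1, -0.13 for Atp5b, 0.62 for Atp5d, -0.21 for Atp5o, -0.39 for Atp5j, 0.48 for Atp5g1 and -0.056 for Atp5g3, and none of the 10 was called by edgeR. The values for Atp5c1, Atp5f1 and Atp5h are given with those genes.

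The mean of the 10 genes' centred log2 CPM was -0.12, -0.13 and 0.11 in controls and -0.068, -0.036 and 0.24 in knockouts. The 5 nuclear genes with the smallest root mean square difference from this pattern, among 721 of at least the expression of the lowest of the 10, were Fh1, Rab10, Ndufa4, Ogdh and Mdh1. Their differences over the 6 libraries were 0.060, 0.071, 0.078, 0.085 and 0.088 log2 units, against a median of 0.30 over the 721. Fh1, Ogdh and Mdh1 encode fumarate hydratase, oxoglutarate dehydrogenase and the cytosolic malate dehydrogenase, Ndufa4 encodes a respiratory chain subunit, and Rab10 encodes a small GTPase. Fh1 was at 18.5 ± 3.14 CPM in control and 19.8 ± 2.67 CPM in knockout libraries (mean ± SD, n = 3 each).

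The subunits of the complex encoded by mtDNA fell. mt-Atp8 and mt-Atp6 overlap and share 1 value in the files, which was 26204, 27141 and 24528 counts in controls and 1211, 1235 and 1668 in knockouts. Relative to nuclear transcripts it fell 30.5-fold (log2 fold change -4.93 ± 0.22 SE, adjusted p = 3.59e-57 by edgeR). With library size only, and so relative to all counts of a library, its log2 fold change was -2.82. The log2 ratio of the summed counts of the 10 nuclear genes to this value was -5.03, -4.58 and -4.28 in controls and 0.24, 0.28 and 0.21 in knockouts. The mtDNA-encoded subunits thus had many more counts than the 10 nuclear genes together in every control, and fewer in every knockout. How much cytosolic RNA each preparation held was not measured.

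**Figure D4:**
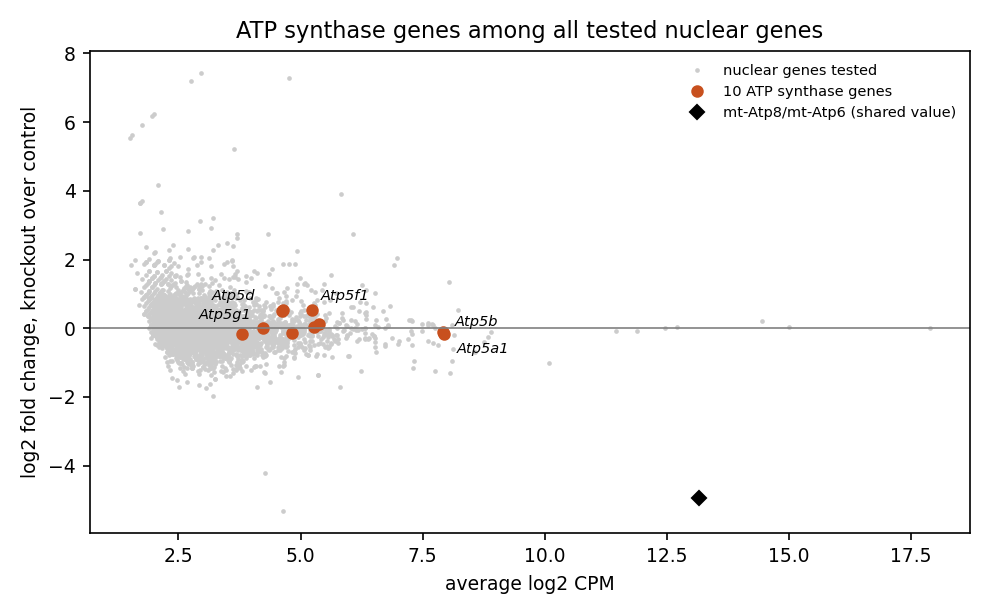
Log2 fold change of knockout over control against average log2 CPM for all tested nuclear genes (grey), the 10 ATP synthase genes (orange) and the shared mt-Atp8 and mt-Atp6 value (black diamond). The 10 genes lie between -0.18 and 0.53, within the band of nuclear genes, and the mtDNA value lies at -4.93.

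Other nuclear genes of the complex are small membrane subunits, the epsilon subunit of the F1 head (Atp5e) and the inhibitor Atpif1. Of 8 listed, 6 could be tested and 0 passed (edgeR; 1 at an unadjusted p under 0.05). That one was Atp5k, for subunit e, with 12, 15 and 18 counts in controls and 12, 14 and 17 in knockouts. Its level was 10.1 ± 0.907 CPM in control and 6.12 ± 0.336 CPM in knockout libraries (mean ± SD, n = 3 each), and the groups did not overlap (log2 fold change -0.71 ± 0.33 SE, adjusted p = 0.146). The others had log2 fold changes of 0.18 (Atp5e), -0.27 (Atp5j2), -0.036 (Usmg5), 0.084 (2010107E04Rik) and 0.56 (Atpif1). Atp5l had 1, 3 and 2 counts in controls and 5, 5 and 6 in knockouts and was not tested. Of 8 genes for assembly of the complex, Oxa1l, an inner membrane insertase, was abundant enough to test, and its log2 fold change was 0.0021 ± 0.36 (SE). The other 7 had too few counts to test.

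Of 8 tested partner genes, which encode carriers and channels for ATP, ADP and phosphate and related proteins, 3 were called higher and 0 lower. For comparison, 6.66% of all tested genes were called higher and 6.78% lower. All 8 partner genes had log2 fold changes above 0, with a median of 0.33. Of all tested genes, 50.1% were above 0, with a median of 0.0038. Among the 721 nuclear genes used above as a background, 81 were called higher and 42.7% were above 0. Slc25a5, an adenine nucleotide carrier, had 7, 16 and 16 counts in controls and 55, 75 and 72 in knockouts. Its level was 8.48 ± 2.26 CPM in control and 28.9 ± 3.19 CPM in knockout libraries, 3.30-fold higher (mean ± SD, n = 3 each; log2 fold change 1.72 ± 0.24 SE, adjusted p = 1.2e-09 by edgeR). With control 1 below the cutoff, Slc25a5 passed the low-count filter only with the knockouts, so its call is not read as a rise. The Slc25a5 call held when each library was left out (adjusted p at most 2.35e-05) and with no low-count filter (adjusted p = 1.99e-11 by edgeR). The outer membrane channel genes Vdac2 (log2 fold change 0.75, adjusted p = 0.00822) and Vdac3 (1.32, adjusted p = 0.00493) were also called higher. Vdac3 had 5, 6 and 8 counts in controls and 19, 21 and 35 in knockouts. It passed the low-count filter through the knockouts, so its call is not read as a rise. Vdac2, with 13 counts in control 1, also passed that filter only with the knockouts, and the same limit holds. With no low-count filter, the calls of Vdac2 (adjusted p = 0.00444 by edgeR) and Vdac3 (adjusted p = 0.00512 by edgeR) were kept. The Vdac2 call was lost when control 1, control 2, knockout 1 or knockout 2 was left out (adjusted p from 0.0515 to 0.097), and that of Vdac3 without knockout 3 (adjusted p = 0.0862). Slc25a4, the main adenine nucleotide carrier of heart, had a log2 fold change of 0.13, the phosphate carrier gene Slc25a3 of 0.25, the mitochondrial creatine kinase gene Ckmt2 of 0.088, Vdac1 of 0.42 and Ppif, for cyclophilin D, of 0.16. These 5 did not pass. In the fit restricted to nuclear genes, Vdac1 passed (0.50, adjusted p = 0.0251), which made 4 of the 8. In that fit 206 of 2271 tested genes were called higher. Near copies of the partner genes were not examined.

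**Figure D5:**
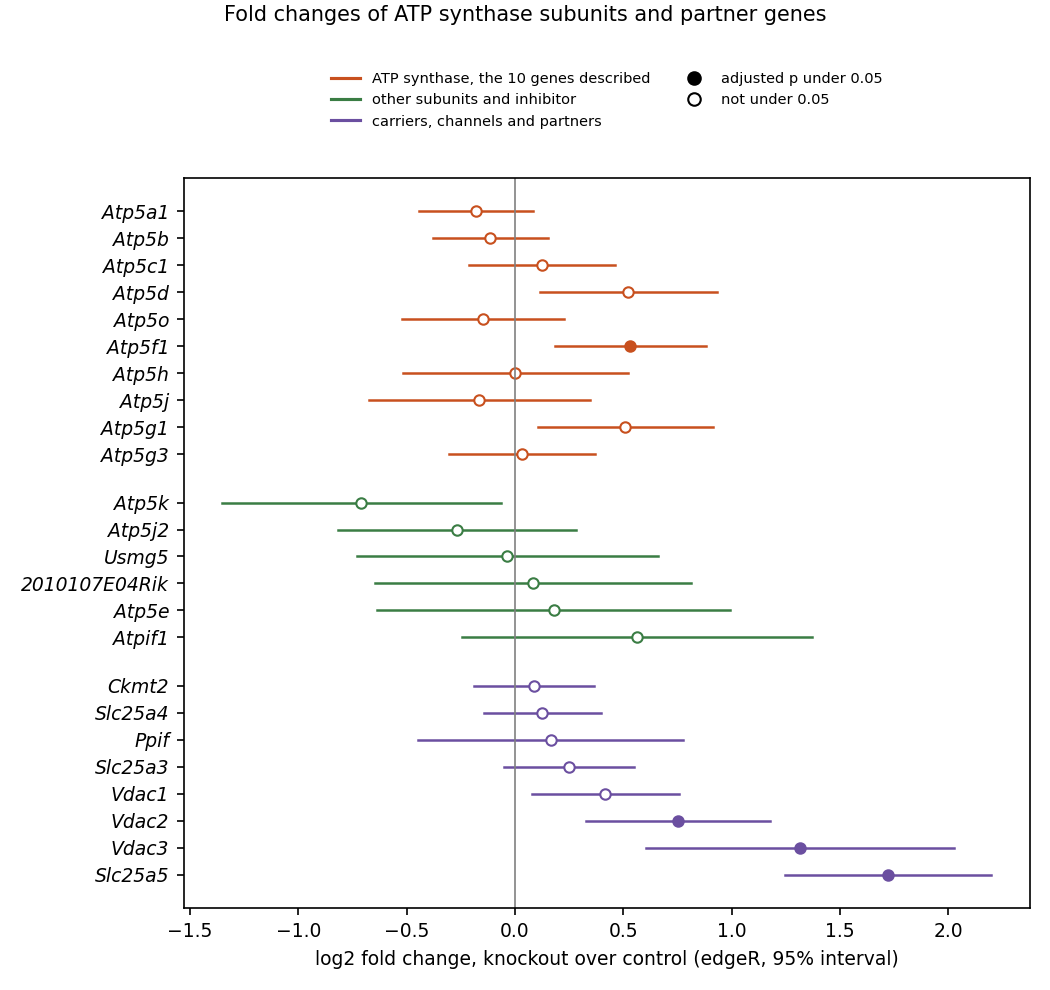
Log2 fold change of knockout over control with 95% intervals (edgeR) for the 10 ATP synthase genes (orange), other subunits and the inhibitor (green) and carriers, channels and partners (purple); filled points have an adjusted p under 0.05. Atp5f1 at 0.53 is the filled point of the synthase genes, and Slc25a5 at 1.72 has the largest value shown.

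Nuclear genes of the other complexes with mtDNA-encoded subunits had medians near 0. The median log2 fold change was 0.046 over 31 tested genes listed by name under complex I, Ndufa4 among them. Of these 1 was called (Ndufa2, log2 fold change 1.60, adjusted p = 0.0128). Ndufa2 had 2, 3 and 3 counts in controls and 10, 15 and 14 in knockouts, and passed the low-count filter through the knockouts, so this call is not read as a rise. It was lost with no low-count filter (adjusted p = 0.0524) and when any library other than knockout 1 was left out (0.0529 to 0.0871). It was -0.077 over 9 genes of complex III and cytochrome c, of which 0 passed (edgeR; 0 at an unadjusted p under 0.05). The median was -0.068 over 13 genes listed under complex IV, without Ndufa4, of which 1 fell (Cox7a1, log2 fold change -1.07, adjusted p = 0.00115). The Cox7a1 call was lost with DESeq2 (adjusted p = 0.0615) and without knockout 1 (0.0554). For nuclear genes of at least the expression of the lowest of the 10 synthase genes, the median of 721 was -0.095, with 81 higher and 110 lower.

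Markers of several other cell types were lower in the knockouts when summed, though not every gene went that way. Summed levels were lower in every knockout than in every control for the 7 fibroblast markers (692 to 739 CPM in controls, 578 to 655 CPM in knockouts) and the 7 endothelial markers (134 to 158 against 98.8 to 119 CPM), all of them detected. The same held for the 6 smooth muscle and pericyte markers (132 to 151 against 80.4 to 116 CPM) and the 6 leukocyte markers (14.1 to 24.4 against 5.64 to 10.3 CPM), of which Cd3e and Cd79a were at 0 in all libraries. Most of the fibroblast sum was Col1a1, Col1a2 and Col3a1, which were not called (log2 fold changes -0.073, -0.29 and -0.18). Called lower were 2 of 7 fibroblast genes, 1 of 7 endothelial genes and 2 of 5 tested smooth muscle and pericyte genes. Csf1r, the 1 leukocyte gene tested, was also called lower. In these lists 0 genes were called higher, and Fabp4 (0.018) and Cspg4 (0.41) were above 0. The 4 red blood cell genes overlapped between the groups. Summed cardiomyocyte markers overlapped as well, but most of that sum was Myh6. Myh6 stood at 2903 ± 349 CPM in control and 2754 ± 73.7 CPM in knockout libraries (mean ± SD, n = 3 each). Of the 8 cardiomyocyte genes, 6 had log2 fold changes below 0 (median -0.23), with 1 higher and 3 lower by the test. For comparison with all these marker lists, 6.66% of all tested genes were called higher and 6.78% lower. Of the 721 nuclear genes used as a background, 81 were called higher and 110 lower. The part of the marker shifts in the values of the synthase genes was not tested.

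Sequence upstream of the c genes is shown because their shares differed between the groups. Windows of 250 bases before each start in the RefSeq table on GRCm38.p6 were found for 9 of the 10 genes, in 12 windows. These starts can differ from those of GENCODE. The windows of Atp5d and Atp5f1 and 1 window of Atp5j lay inside the GENCODE gene. In the c gene sequences below, capitals mark the match to a searched motif, and both are written 5′ to 3′ on the strand of the gene. For Atp5g1 the part before the GENCODE gene start is printed, 211 bases at chr11:96075671-96075881 (minus strand), and for Atp5g3 250 bases at chr2:73911327-73911576 (minus strand).
Atp5g1: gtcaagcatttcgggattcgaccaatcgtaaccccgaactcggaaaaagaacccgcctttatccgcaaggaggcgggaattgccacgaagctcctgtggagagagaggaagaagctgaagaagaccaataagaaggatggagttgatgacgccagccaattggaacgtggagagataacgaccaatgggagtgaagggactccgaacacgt
Atp5g3: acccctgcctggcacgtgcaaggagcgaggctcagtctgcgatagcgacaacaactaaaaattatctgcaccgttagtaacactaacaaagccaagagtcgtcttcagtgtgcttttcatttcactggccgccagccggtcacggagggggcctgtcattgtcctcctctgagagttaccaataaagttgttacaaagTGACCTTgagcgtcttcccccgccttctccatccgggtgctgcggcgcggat
The 6 motifs searched on both strands were CGCATGCG (NRF1 core), CCGGAAG (ETS), AAGATGG (YY1), GGGCGG (GC box), AAGGTCA (the site of estrogen-related receptors) and TGATGNAA (ATF4-type). No matches overlapped each other. The Atp5g1 window held none of them, and the Atp5g3 window held AAGGTCA, read from the opposite strand, 52 bases before the start.

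Over the 12 windows, GGGCGG was found in 3 (Atp5b, Atp5f1 and Atp5j; 25.0%, against 32.7% of all 32851 windows in the table). CCGGAAG was in 2 (Atp5h and Atp5j; 16.7% against 6.91%). CGCATGCG was in 1 (1.55% of all windows) and AAGATGG in 1 (4.49%), both in 1 window of Atp5j that also held the ETS match. That window is the one inside the GENCODE gene. For the Atp5h window, the bases checked past its start were not found in the GENCODE transcripts of the gene. AAGGTCA was in the Atp5g3 window alone (4.08% of all windows), and TGATGNAA in none (3.45%). A match of letters describes the window and is not a binding site, and some of the 12 windows belong to 1 gene and overlap.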

How the data were processed

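RNA of crude heart mitochondria was sequenced from 3 control and 3 knockout mice, per the labels' protocols as paired-end reads on a MiSeq after the miRNeasy and Illumina TruSeq kits. The authors deposited raw counts per gene as whole numbers. The submitters' processing notes name HISAT 0.1.6, featureCounts 1.3.5-p4, R 3.2.0, edgeR 3.11.2 and the build GRCm38. The annotation release, the strand setting and how reads with several alignments were handled are points not given in the sources used here. Also deposited, the table of the authors' own comparison holds, per the file headers, for each gene its p-value and false discovery rate, the likelihood ratio as a score, and log2 values of the fold change and of the average CPM. The authors' rounded normalised values were not used.

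From the counts, the groups were compared with the quasi-likelihood test of edgeR (version 4.0.16, with limma 3.58.1 and R 4.3.3; robust fit, no covariate, TMM scaling) over 3363 genes left by filterByExpr (total of at least 15 counts, and at least 3 libraries above the CPM that 10 counts give in a library of median size). That CPM was taken on total counts, mtDNA included, so a control library needed more counts than a knockout library to exceed it. All 10 synthase genes passed, Atp5d only with the knockouts. A gene was called, 2-sided, when its p adjusted over all tested genes by Benjamini-Hochberg was under 0.05. Each SE was derived from the F statistic of the gene. Ratios within a library are given by values without a test, since the genes were chosen with results known. Centred log2 CPM used a prior of 2 counts. Symbols, positions and coding lengths came from GENCODE M21. Near copies were sought by matching coding sequences at 90% identity or more over 100 bases or more. DESeq2 1.42.0, other scalings, no low-count filter, nuclear genes only, a replicate block and leaving out each library were tried as alternatives, and adding near copies was chosen after seeing the data. The procedure was tested on simulated data.

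The genes and lists were chosen with earlier results of these data known. Named are the 10 genes, the tested genes of the lists of other subunits, assembly factors, mtDNA subunits and partners, and the 5 genes most like the 10. Genes that overlap or copy them, Ndufa2 and Cox7a1 were named after their values were seen, and Atp5g2 and Atp5l were untested list members. Each library is 1 mouse. Over genes outside mtDNA, loci that collect ribosomal RNA reads included, replicates differed by more than sampling noise (chi-square per degree of freedom 1.3 to 6.26). Intervals of log2 fold changes come from the edgeR fit and include the spread between mice. Clopper-Pearson intervals and the 3-count level describe counting error alone: without molecular identifiers, reads are not independent molecules.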

Additional observations from a re-analysis of the deposited data

How the results depend on the processing

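The number of genes called, 452 of all tested, was 191 with DESeq2, 3343 with library size only and 279 to 352 when each library was left out. The number of the 10 called higher was 0 with DESeq2, 3 with nuclear genes only, 10 with library size only and 0 to 2 when each library was left out. Of all tested genes, 109 of 2711 were called higher with DESeq2, 206 of 2271 with nuclear genes only and 3325 of 3363 with library size only. When each library was left out, 140 to 181 were called higher, of 3039 to 4882 tested. None of the 10 was called lower under any of these settings. With library size only, the median over all tested genes moved to 2.06 and that over the 10 to 2.08, so these calls carry that shift, and Atp5a1 (1.88), Atp5b (1.95), Atp5o (1.92) and Atp5j (1.90) turned positive. Of called genes, 49.6% were higher with TMM, 57.1% with DESeq2, 62.6% with no low-count filter and 99.5% with library size only. The median over the 10 was between -0.10 and 0.12 when each library was left out.

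Signs of genes near 0 turned. Atp5b was 0.016 with no low-count filter. Atp5h was -0.024 with the replicate block, -0.027 with near copies added, -0.056 without control 1, -0.024 without control 2 and -0.55 without knockout 3. Atp5c1 was -0.012 without control 2 and -0.077 without knockout 3, Atp5g3 -0.056 without knockout 3, Atp5o 0.037 without control 3 and Atp5j 0.049 without knockout 1. When each library was left out, the values ran from -0.55 to 0.25 for Atp5h, -0.077 to 0.26 for Atp5c1, -0.056 to 0.11 for Atp5g3, -0.30 to 0.037 for Atp5o and -0.39 to 0.049 for Atp5j. The difference in the log2 ratio of F1 to Fo counts was 0.0061 by mean log2 CPM and between -0.34 and -0.14 when each library was left out. None of these sign changes came with a call except those with library size only. The cause was not tested.

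The labels do not say that replicate numbers pair the mice. Same-numbered libraries had correlations of -0.019, 0.019 and 0.021 between their deviations from the group means. With few counts for most genes, such values cannot tell whether mice were paired. With the replicate number as a block, 429 genes were called, Atp5f1 was the only one of the 10 (adjusted p = 0.0267), and Atp5h had the sign given above. Depth limits Atp5d, Atp5j, Atp5h and Atp5g1 most, with between 14 and 75 counts per library.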
